A study of Homo sapiens with 18 samples.

Results

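The mitosis genes described here are 37 genes whose products drive, power or check the division of a cell. They were chosen by name, as the rows of the deposited expression table whose Ensembl identifiers carry the symbols of the list in the GENCODE v29 annotation, and all 37 were found among the 57773 genes of the table. By role they are 5 genes of the cyclins and their kinase CDK1 with its activator, 3 further mitotic kinases, 4 spindle checkpoint genes, 3 genes around the anaphase-promoting complex, 6 kinesins, 6 kinetochore and centromere genes, 3 subunits of the chromosomal passenger complex, 4 genes of the spindle and of cytokinesis, and the trio FOXM1, TOP2A and MKI67. No measured value entered the choice of names, although the names were picked with results of these data already known.

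Entry into mitosis is driven by CDK1 bound to cyclin A or cyclin B, with the Polo-like kinase PLK1 and the Aurora kinases acting on centrosomes, spindle and chromosomes. The spindle checkpoint holds the cell until every kinetochore is attached, after which CDC20 activates the anaphase-promoting complex, securin and cyclin B are destroyed, and the sister chromatids part. Transcripts of these genes are low in G0 and G1 and high in G2 and M, under the DREAM repressor on one side and FOXM1 with the MuvB and MYBL2 proteins on the other, so their level in a whole culture moves with the share of cells in division. In RNA from a whole culture, fewer cells in G2 and M and less of the transcript in each such cell cannot be told apart.

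The study measured polyadenylated RNA in clones of RPE1, a human retinal pigment epithelium line, and compared tetraploid with diploid clones. The cells were held for 72 h in 2.5 uM ZM447439, an Aurora kinase inhibitor under which cells leave mitosis undivided, and the survivors were grown for weeks and then cloned from single cells, so that both ploidies carry this history. Ploidy was assigned by flow cytometry. Each tetraploid clone (4N-1, 4N-2, 4N-3) has a diploid partner of the same number (2N-1, 2N-2, 2N-3) that was picked from the plates it grew on. Clones 4N-2 and 2N-2 alone were also labelled with Hoechst 33342 before they were cloned again. All 6 clones were grown in DMEM with 10% serum. Each ploidy group of a pair is 1 clone with 3 libraries (A, B and C), and the labels do not say whether these came from separate cultures, so the p-values of a pair measure the spread between libraries of those clones and not between independent tetraploid events.

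The values are RPKM, reads per kilobase of gene per M reads (M, mega), and they contain the reads themselves: 38.8 to 56.8 M reads in genes per library could be recovered from them. The length the authors divided by matched the genomic span, introns included, for 86.9% of well-covered genes. Apart from the marker sums below, an RPKM is therefore compared here only between libraries for 1 gene. Genes are set side by side only as reads per kilobase of exon per M reads. Library A of 2N-3 stands apart from the other 17 across the transcriptome, and library C of 4N-3 stands apart in the mitosis and DNA replication genes. The RPKM counts that touch pair 3 are therefore given with and without them. A single gene's change is given both ways for some of the genes whose sign or call differs. Since library C was picked out by these same genes, leaving it out raises 4N-3 in every contrast by construction. On that exon scale the 37 genes ran from 3.51 (CDC25C) to 51.2 (TOP2A). Of 14 markers of retinal pigment epithelium, OTX2, MITF, KRT8 and KRT18 reached 1, BEST1, PMEL, LRAT and SERPINF1 lay between 0.159 and 0.676, and RPE65, RLBP1, TYR, TYRP1, DCT and TTR lay below 0.1. None of 17 markers of other cell types reached 1 (LYZ was highest, 0.742), with CD3E and INS at 0 reads in every library, and the sum of their RPKM lay between 0.177 and 0.430 in every library. The summed retinal list ran from 73.5 to 75.8 RPKM in 2N-1 against 116 to 121 in 4N-1, from 74.8 to 80.8 in 2N-2 against 98.2 to 105 in 4N-2, and from 78.5 to 133 in 2N-3 against 82.6 to 86.0 in 4N-3. This sum is mostly KRT18, with a mean of 83.2 RPKM over the 18 libraries. KRT8 had 5.18, OTX2 3.68 and every other gene of the list 0.199 or less. The sum is therefore no measure of retinal identity, and its part in the results was not tested.

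Since the 37 genes moved largely as a block, the stretch before their transcription starts is shown first. RefSeq (GRCh38.p14) gave a promoter for 31 of the 37. Each was searched on both strands for the letters TTTGAA or TTCGAA, the core of the cell cycle homology region (CHR) through which the DREAM and FOXM1 complexes bind, and for CCAAT, the NF-Y box. From 250 bases before to 50 after the start, 23 of 31 (74.2%) held the CHR letters against 16.6% of all 27305 promoters in the table, 24 (77.4%) held CCAAT against 35.7%, and 19 (61.3%) held both against 6.6%. In the 100 bases before the start alone the counts were 13 (41.9%, against 4.9%), 20 (64.5%, against 18.7%) and 10 (32.3%, against 1.0%). The letters can overlap each other, as in MKI67, where a CHR core runs into an inverted CCAAT. A match says only that the letters are there. Whether the letters go with the changes of single genes was not tested. The following are the 100 bases before the start of the genes the later results turn on, 5′ to 3′ on the strand of the gene, with CHR and CCAAT letters of either strand in capitals. In this stretch PLK1, CDC20, KIF11, PRC1 and MKI67 hold both kinds. CCNB1, KIF20A and TOP2A hold only CCAAT there, CENPA only a CHR core, and CDK1 neither. From 250 bases before to 50 after the start, TOP2A, CENPA and CDK1 each hold both kinds.
PLK1 (chr16:23678789-23678888, plus strand): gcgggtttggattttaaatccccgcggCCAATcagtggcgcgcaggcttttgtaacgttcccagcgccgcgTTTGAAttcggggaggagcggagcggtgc
CDC20 (chr1:43358881-43358980, plus strand): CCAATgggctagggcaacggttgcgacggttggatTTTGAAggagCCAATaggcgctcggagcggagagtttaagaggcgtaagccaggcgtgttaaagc
KIF11 (chr10:92593030-92593129, plus strand): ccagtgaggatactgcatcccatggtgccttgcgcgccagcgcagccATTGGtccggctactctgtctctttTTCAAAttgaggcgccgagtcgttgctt
PRC1 (chr15:90994536-90994635, minus strand): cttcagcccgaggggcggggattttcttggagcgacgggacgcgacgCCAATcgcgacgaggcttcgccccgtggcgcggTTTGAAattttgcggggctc
MKI67 (chr10:128126424-128126523, minus strand): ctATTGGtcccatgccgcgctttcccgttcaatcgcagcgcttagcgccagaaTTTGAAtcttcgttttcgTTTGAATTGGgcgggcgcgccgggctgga
CCNB1 (chr5:69167050-69167149, plus strand): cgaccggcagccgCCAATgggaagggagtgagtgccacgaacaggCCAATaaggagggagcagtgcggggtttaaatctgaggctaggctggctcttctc
KIF20A (chr5:138179012-138179111, plus strand): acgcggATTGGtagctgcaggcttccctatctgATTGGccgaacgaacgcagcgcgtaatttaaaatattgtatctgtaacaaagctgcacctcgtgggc
TOP2A (chr17:40417897-40417996, minus strand): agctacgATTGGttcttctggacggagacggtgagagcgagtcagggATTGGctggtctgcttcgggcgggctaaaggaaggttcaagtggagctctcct
CENPA (chr2:26785956-26786055, plus strand): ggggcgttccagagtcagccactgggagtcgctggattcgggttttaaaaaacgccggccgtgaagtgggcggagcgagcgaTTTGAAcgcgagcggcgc
CDK1 (chr10:60778231-60778330, plus strand): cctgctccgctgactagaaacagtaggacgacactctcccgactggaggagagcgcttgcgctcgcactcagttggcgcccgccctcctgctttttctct

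Across the 6 clones the tetraploid clone 4N-1 was the low one. For all 37 genes, the 3 libraries of 4N-1 lay below each of the 15 other libraries, which held for 11.7% of all genes tested. Relative to the mean of each gene over the 18 libraries (log2 RPKM), the median gene stood at -1.14 in 4N-1, -0.01 in 2N-2, 0.17 in 2N-1, 0.21 in 2N-3, 0.29 in 4N-3 and 0.49 in 4N-2. The highest clone by mean RPKM was 4N-2 for 26 genes, 4N-3 for 6 (among them KIF18A and NUF2), 2N-3 for 4 and 2N-1 for 1. The highest clone mean exceeded the lowest by 2.17-fold (CENPA) to 4.57-fold (ANLN), with a median of 3.11-fold over the 37.

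**Figure D1:**
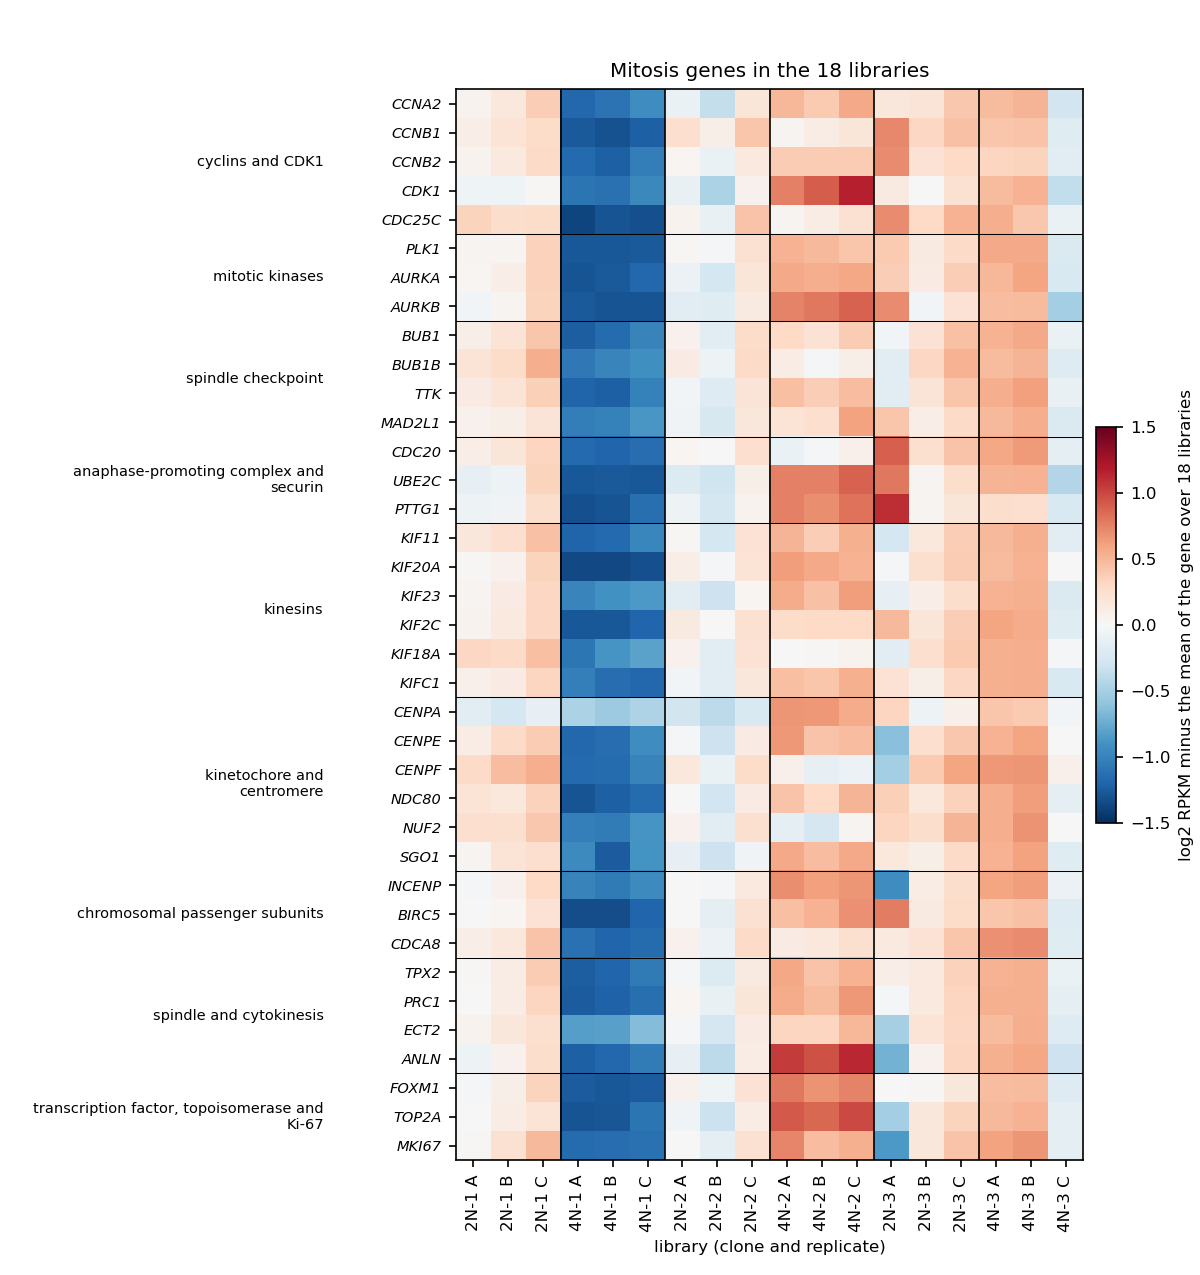
Level of each of the 37 mitosis genes (rows, grouped by role) in each of the 18 libraries (columns), as log2 RPKM minus the mean of that gene over the 18 libraries. The 3 libraries of 4N-1 are the lowest for all 37 genes, 4N-2 is the highest clone for 26, and library C of 4N-3 is lower than libraries A and B of its clone for all 37.

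The tests used genes with 1 RPKM or more in at least 3 libraries, 9704 in all, and the scale log2(RPKM + 0.5), which understates the change of low genes. Rankings of changes below hold on this scale only, medians by role do not rank the roles, and changes on reads are on another scale. Of the 37 genes 33 passed this filter. CDC25C, KIF18A, NUF2 and SGO1, which reached 1 RPKM in no library, did not pass, and their changes are given from recovered reads (limma-voom, 23547 genes). CENPA (mean 0.90 RPKM, 6 libraries at 1 or more) and CENPE (mean 0.95, 9 libraries) lay just inside the filter, and SGO1 (mean 0.57) and NUF2 (0.56) just outside it. Unless stated otherwise, a change is a log2 difference between clones from the fit of limma to all 9704 genes and 18 libraries, a p is adjusted over all genes, and a gene rose or fell where that p was below 0.05.

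Among the 3 diploid clones the moderated F test of limma called none of the 33 genes at adjusted p below 0.05, beside 1.58% of all genes tested, with adjusted p from 0.238 to 0.903. At an unadjusted p below 0.05 there were 2, CCNB2 and CENPA, and limma-voom on reads called 0 of 37, beside 4.37% of all genes (3 unadjusted, with PTTG1 added). Among the 3 tetraploid clones the same test called 33 of 33, beside 50% of all genes, with adjusted p from 8.01e-08 to 5.94e-04, and 37 of 37 on reads, beside 50.6%. Without the 2 libraries that stand apart the counts were 0 of 33 among the diploid clones (background 7.41%) and 33 of 33 among the tetraploid (background 77.4%). Contrasts of the tetraploid clones with each other, added after that result was seen, placed 4N-1 below 4N-3 for 33 of 33 genes (median -1.20, background lower 10.8%; without the 2 libraries also 33, median -1.43, background 31.8%) and 4N-2 above 4N-1 for 33 of 33 (median 1.26, background higher 27.7%). Between 4N-2 and 4N-3 the clones were closer: 7 of 33 were higher in 4N-2, a share near the 17.3% of all genes, with ANLN at 0.71 (SE 0.22), CDK1 at 0.69 (SE 0.18), PTTG1 at 0.64 (SE 0.21), AURKB at 0.63 (SE 0.21), TOP2A at 0.61 (SE 0.19), FOXM1 at 0.47 (SE 0.14) and CENPA at 0.25 (SE 0.08). Without the 2 libraries these 7 passed again (background 25.6%), but at smaller sizes: ANLN at 0.45, CDK1 at 0.42, PTTG1 at 0.48, AURKB at 0.33, TOP2A at 0.40, FOXM1 at 0.26 and CENPA at 0.16. In that setting 6 others were lower in 4N-2 than in 4N-3 (CDC20, CENPF, CCNB1, CDCA8, KIF2C and BUB1B; background 25.5%), CDC20 by the most at -0.61 (SE 0.09).

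**Figure D2:**
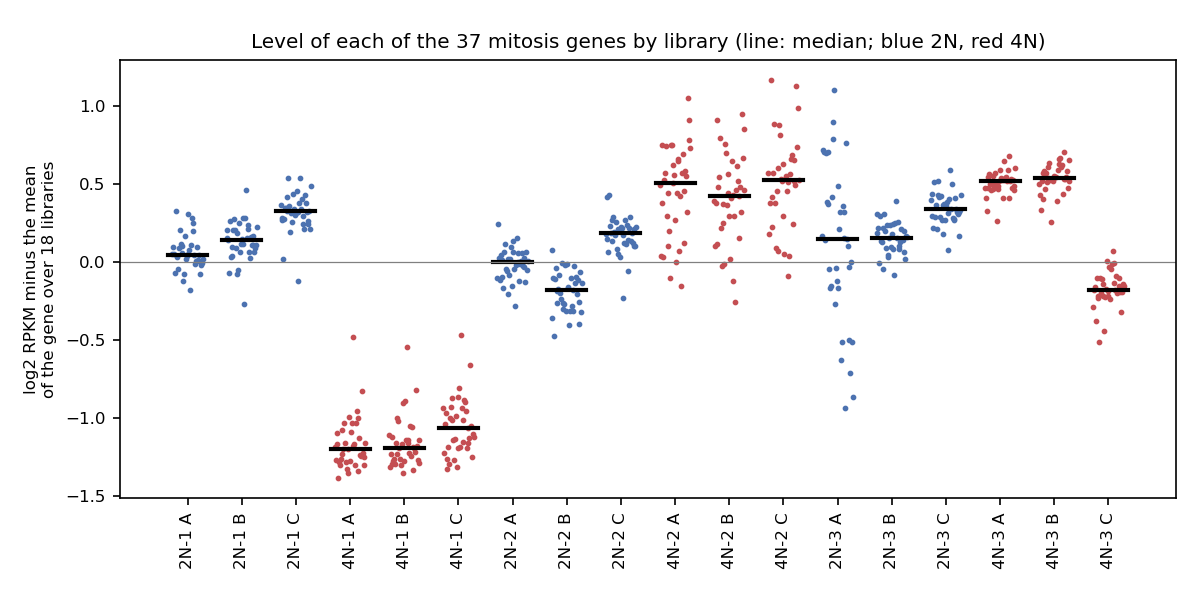
Each point is 1 of the 37 mitosis genes in 1 library, as log2 RPKM minus the mean of that gene over 18 libraries, with diploid libraries in blue, tetraploid in red and the median as a black line. The median line lies from -1.20 to -1.06 in the 3 libraries of 4N-1, from 0.42 to 0.53 in those of 4N-2, and at 0.52, 0.54 and -0.18 in A, B and C of 4N-3.

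In pair 1 the mitosis genes were lower in the tetraploid clone. Of 33 tested, 32 fell in 4N-1 against 2N-1 and none rose, beside 10.3% of all genes called lower and 10.6% called higher. On the scale of log2(RPKM + 0.5), 23 of the 32 fell by 2-fold or more. That count leaves out genes of low RPKM whose mean fell further, such as TTK, from 1.29 RPKM in 2N-1 to 0.50 in 4N-1. The median change was -1.10, against -0.01 over all genes, and the range ran from -1.40 (KIF20A) to -0.18 (CENPA). CENPA, the histone H3 variant that marks centromeres, was the one that did not pass (adjusted p = 0.141). On recovered reads 36 of 37 fell (background 8.95%), CENPA again missing at adjusted p = 0.0832. The fit shares 1 estimate of the spread, and without the 2 libraries that stand apart, which widen it, all 33 fell (background 24.2%), CENPA at the same -0.18 (SE 0.04, adjusted p = 0.00386). The libraries of all 37 genes were separate in this pair, every library of 4N-1 below every one of 2N-1, which held for 28.8% of all genes.

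In pair 2 the direction was the opposite and the response less even. Of 33 tested, 19 rose in 4N-2 against 2N-2 and none fell, beside 21.5% of all genes called higher and 16% called lower. On the scale of log2(RPKM + 0.5), 2 of the 19, ANLN and CDK1, rose by 2-fold or more. The median change was 0.46, against 0.04 over all genes, with 29 genes above 0 and 4 below it (CENPF, CCNB1, CDC20 and BUB1B). The libraries of 4N-2 all lay above those of 2N-2 for 28 of 37 genes, beside 35.2% of all genes, and overlapped for CCNB1, CDC25C, BUB1, BUB1B, CDC20, KIF18A, CENPF, NUF2 and CDCA8. On reads 23 of 37 rose (background 20.4%). The count of 19 rests partly on single libraries: it was 9 without library B of 2N-2 and 12 without library C of 4N-2. It was 26 without the 2 libraries of pair 3 that stand apart (background 33.9%). The genes added there were CCNB2, PLK1, TTK, MAD2L1, KIF11, ECT2 and MKI67.

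In pair 3 limma called none of the 33 genes, beside 1.99% of all genes called higher and 1.41% lower. The gene INCENP alone had an unadjusted p below 0.05, and limma-voom called 0 of 37, beside 6.24% of all genes in either direction, with INCENP again the one at an unadjusted p below 0.05. The median change was 0.10, with a range from -0.33 (PTTG1) to 0.44 (MKI67) and standard errors from 0.08 to 0.26, and the libraries of 4N-3 and 2N-3 overlapped for all 37 genes. Without library A of 2N-3 and library C of 4N-3 the median was 0.26 and all 33 changes were above 0. In that setting 7 passed, beside 12.3% of all genes called higher: FOXM1 (0.36), CDCA8 (0.34), PLK1 (0.34), INCENP (0.34), KIF23 (0.30), CENPA (0.27) and KIF2C (0.26). Library C of 4N-3 was set apart because these same genes were low in it. Leaving it out therefore raises the changes of pair 3 by construction, and the counts without it are no separate evidence of a rise. Leaving out library C of 4N-3 alone gave a median of 0.29 and 3 that passed (background higher 5.01%), and leaving out A of 2N-3 alone gave a median of 0.05 and 0 that passed.

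**Figure D3:**
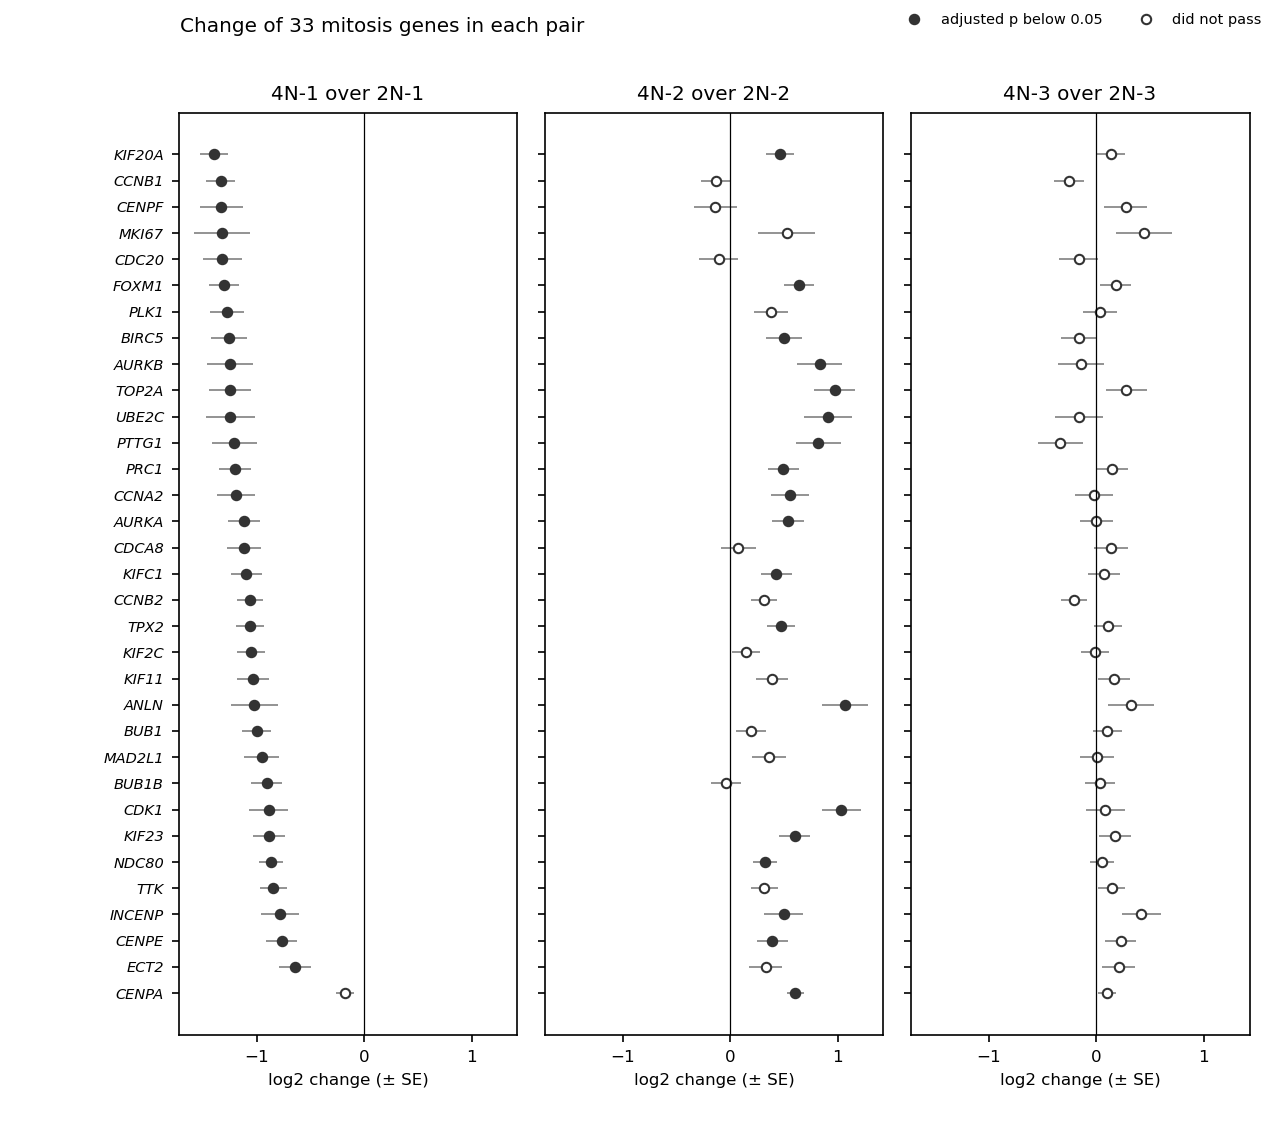
Change of the 33 tested mitosis genes in each pair (log2, tetraploid over diploid clone, ± SE of the limma fit), in the same order in all 3 panels, with filled circles for adjusted p below 0.05. In pair 1, 32 circles are filled and lie left of 0; in pair 2, 19 are filled and lie right of it; in pair 3 none is filled.

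The differences between pairs were tested directly. The change in pair 2 was above that in pair 1 for 33 of 33 genes (background higher 20.5%), by 0.78 (SE 0.11) for CENPA to 2.22 (SE 0.27) for TOP2A. The change in pair 3 was above that in pair 1 for 31 of 33 (background 5.16%), the exceptions being PTTG1 (0.87, SE 0.30, adjusted p = 0.0747) and CENPA (0.28, SE 0.11, adjusted p = 0.132), and for 33 of 33 without the 2 libraries that stand apart (background 25.1%). Pair 2 exceeded pair 3 for 6 of 33, a share near the 14.3% of all genes. These were PTTG1 by 1.15 (SE 0.30), UBE2C by 1.07 (SE 0.32), AURKB by 0.97 (SE 0.30), CDK1 by 0.95 (SE 0.25), CCNB2 by 0.52 (SE 0.17) and CENPA by 0.51 (SE 0.11). That count of 6 was 3 without library A of 2N-2, without B of 2N-2 or without C of 4N-2. Without the 2 libraries that stand apart 7 passed, again a share near the background of 19.2%. There CCNB2 was lost (0.25, adjusted p = 0.0581), and ANLN (0.74) and TOP2A (0.73) were gained. The others stood at 0.68 for PTTG1 and for CDK1, 0.55 for UBE2C, 0.47 for AURKB and 0.34 for CENPA. In the same setting CDC20 had pair 2 below pair 3, by -0.37 (SE 0.12), beside 19.7% of all genes called lower. Taking each clone as 1 value, 3 tetraploid against 3 diploid with the pair as a block, limma called 0 of 33 genes (0 at an unadjusted p below 0.05), beside 0% of all genes (391 of 9704 unadjusted), and limma-voom called 0 of 37 (0 unadjusted). The median was -0.19, with 5 genes above 0 and 28 below it, and -0.12 with 6 above 0 and again 0 called without the 2 libraries.

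Among the cyclins and CDK1, 4 were tested, and all 4 fell in pair 1 (median -1.13) while 2 rose in pair 2 (median 0.43). CCNB1 (ENSG00000134057, chr5:69167010-69178245 in GRCh38) encodes cyclin B1, the partner of CDK1 at mitotic entry. It stood at 8.80, 9.48 and 9.91 RPKM in 2N-1 (libraries A, B and C in that order, here and below) and at 3.42, 3.31 and 3.53 in 4N-1. It stood at 9.75, 8.69 and 11.0 in 2N-2 and 8.46, 8.84 and 9.34 in 4N-2, and at 13.5, 10.2 and 11.1 in 2N-3 and 11.0, 11.1 and 7.26 in 4N-3. The libraries were separate in pair 1 and overlapped in the others. CCNB1 fell by 1.34 (SE 0.14) in pair 1 and passed in neither pair 2 (-0.13 (SE 0.14)) nor pair 3 (-0.25 (SE 0.14)). The sign in pair 3 turned without the 2 libraries that stand apart, to 0.05 (SE 0.09, adjusted p = 0.761).

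CDK1 (ENSG00000170312, chr10:60778331-60794852), the catalytic partner, behaved differently from CCNB1 in pair 2. It stood at 4.72, 4.72 and 5.02 RPKM in 2N-1 and 2.32, 2.28 and 2.53 in 4N-1, at 4.58, 3.57 and 5.18 in 2N-2 and 8.33, 9.33 and 11.1 in 4N-2, and at 5.46, 4.94 and 5.78 in 2N-3 and 6.88, 7.11 and 3.82 in 4N-3. Library C of 4N-2 was the highest of the 18 and library C of 4N-3 the lowest of its pair. CDK1 fell by 0.89 (SE 0.18) in pair 1 and rose by 1.03 (SE 0.18) in pair 2 (adjusted p = 0.000334). CCNA2, the cyclin of S phase and early mitosis, fell by 1.19 (SE 0.18) and rose by 0.55 (SE 0.18). CCNB2, the second mitotic B cyclin, fell by 1.06 (SE 0.12) and stood at 0.31 (SE 0.12) in pair 2, where it missed the test on RPKM (adjusted p = 0.0554) and rose on reads (adjusted p = 0.0404). On RPKM it passed there without the 2 libraries that stand apart (adjusted p = 6.58e-04).

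CDC25C (chr5:138285265-138338355), the phosphatase that switches CDK1 on, was low on the RPKM scale and was followed in reads, 9488 over the 18 libraries. Its RPKM was 0.271, 0.259 and 0.261 in 2N-1 and 0.0827, 0.0881 and 0.0861 in 4N-1, 0.223, 0.200 and 0.290 in 2N-2 and 0.221, 0.233 and 0.252 in 4N-2, and 0.351, 0.265 and 0.309 in 2N-3 and 0.314, 0.286 and 0.201 in 4N-3. The 3 libraries of 4N-1 held less than each other library. On reads CDC25C fell by 1.62 (SE 0.17) in pair 1 and stood at 0.01 (SE 0.15) in pair 2. It shares 293 exon bases with FAM53C on the other strand, a gene with 45875 reads, and whether the authors counted by strand is not given in the sources used here, so its level is uncertain.

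The 3 mitotic kinases all fell in pair 1 (median -1.25), and AURKA and AURKB rose in pair 2. PLK1 (ENSG00000166851, chr16:23677656-23690367) acts at centrosomes, kinetochores and in cytokinesis. It stood at 7.38, 7.36 and 9.15 RPKM in 2N-1 and 2.96, 2.97 and 2.99 in 4N-1, at 7.26, 7.01 and 8.43 in 2N-2 and 10.3, 10.0 and 9.57 in 4N-2, and at 9.39, 7.88 and 8.76 in 2N-3 and 10.6, 10.7 and 6.17 in 4N-3. The 3 libraries of 4N-1 lay close together and all of 4N-2 lay above all of 2N-2. PLK1 fell by 1.28 (SE 0.16) in pair 1, and in pair 2 it stood at 0.38 (SE 0.16), short of the threshold (adjusted p = 0.0719, and 0.0502 on reads); it passed without C of 4N-3 (adjusted p = 0.00402).

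AURKA (chr20:56369389-56392337) builds the spindle poles, and AURKB (chr17:8204733-8210600) is the kinase of the chromosomal passenger complex and a target of the drug the clones had survived. AURKA stood at 2.98, 3.12 and 3.72 RPKM in 2N-1 and 1.19, 1.22 and 1.29 in 4N-1, at 2.74, 2.44 and 3.32 in 2N-2 and 4.34, 4.26 and 4.34 in 4N-2, and at 3.78, 3.19 and 3.77 in 2N-3 and 4.13, 4.39 and 2.49 in 4N-3. AURKB stood at 6.49, 6.88 and 8.42 in 2N-1 and 2.79, 2.73 and 2.73 in 4N-1, at 5.97, 5.89 and 7.34 in 2N-2 and 11.2, 11.6 and 12.4 in 4N-2, and at 10.9, 6.50 and 7.74 in 2N-3 and 9.22, 9.26 and 4.71 in 4N-3. In both genes 4N-1 was lowest and 4N-2 separate from and above 2N-2. In AURKB the A library of 2N-3 was well above B and C, and the C library of 4N-3 well below A and B. AURKA fell by 1.12 (SE 0.15) and rose by 0.54 (SE 0.15), and AURKB fell by 1.25 (SE 0.21) and rose by 0.83 (SE 0.21); in pair 3 they stood at 0.00 (SE 0.15) and -0.14 (SE 0.21), and without the 2 libraries that stand apart at 0.26 (SE 0.11, adjusted p = 0.126) and 0.36 (SE 0.12, adjusted p = 0.0558), so that the sign of AURKB turned. The rise of AURKA missed the threshold without B of 2N-2 (0.45, adjusted p = 0.0535).

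The spindle checkpoint genes fell in pair 1 (4 of 4, median -0.93), and none of the 4 passed in pair 2 on RPKM (median 0.26; BUB1B at -0.04), although TTK rose there on reads. BUB1 (chr2:110637698-110678114) encodes a kinase that recruits the checkpoint to kinetochores. It stood at 2.01, 2.18 and 2.52 RPKM in 2N-1 and 0.805, 0.847 and 0.944 in 4N-1, at 1.98, 1.68 and 2.28 in 2N-2 and 2.32, 2.20 and 2.45 in 4N-2, and at 1.84, 2.20 and 2.55 in 2N-3 and 2.70, 2.81 and 1.76 in 4N-3. Its libraries overlapped in pairs 2 and 3, and it fell by 1.00 (SE 0.14) in pair 1 and stood at 0.19 (SE 0.14) in pair 2. MAD2L1 (chr4:120055608-120067074), which encodes the MAD2 protein that inhibits CDC20, stood at 5.04, 5.15 and 5.53 in 2N-1 and 2.36, 2.39 and 2.64 in 4N-1, at 4.65, 4.10 and 5.45 in 2N-2 and 5.55, 5.75 and 7.35 in 4N-2, and at 6.46, 5.16 and 5.92 in 2N-3 and 6.79, 7.03 and 4.16 in 4N-3. All of 4N-2 lay above 2N-2 by a small margin, and MAD2L1 fell by 0.95 (SE 0.16) and stood at 0.36 (SE 0.16) in pair 2 (adjusted p = 0.0935, and 0.0199 without C of 4N-3). BUB1B, the BUBR1 subunit of the checkpoint complex, fell by 0.91 (SE 0.14) and TTK, the MPS1 kinase that starts checkpoint signalling, by 0.84 (SE 0.13). BUB1B shares 457 exon bases with a read-through transcript annotated on the same strand, BUB1B-PAK6, which also had reads (17467).

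Around the anaphase-promoting complex all 3 genes fell in pair 1 (median -1.24) and UBE2C and PTTG1 rose in pair 2, while CDC20 did not. CDC20 (ENSG00000117399, chr1:43358955-43363203) encodes the activator that the checkpoint holds back. It stood at 23.4, 24.8 and 27.2 RPKM in 2N-1 and 9.76, 9.57 and 9.91 in 4N-1, at 22.2, 21.8 and 26.1 in 2N-2 and 20.3, 21.6 and 22.9 in 4N-2, and at 40.7, 25.8 and 29.3 in 2N-3 and 32.5, 33.9 and 19.8 in 4N-3. The clones of pair 2 overlapped, and library A of 2N-3 was the highest of all 18. CDC20 fell by 1.32 (SE 0.18) in pair 1 and stood at -0.11 (SE 0.18) in pair 2. UBE2C, the ubiquitin-conjugating enzyme of the complex, fell by 1.24 (SE 0.23) and rose by 0.91 (SE 0.23). PTTG1, which encodes securin, the inhibitor of separase, fell by 1.21 (SE 0.21) and rose by 0.82 (SE 0.21).

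Of the kinesins 5 were tested; all 5 fell in pair 1 (median -1.06) and 3 rose in pair 2 (median 0.43). KIF20A (ENSG00000112984, chr5:138178719-138187715), a motor of the central spindle in late mitosis, stood at 13.2, 13.6 and 16.5 RPKM in 2N-1 and 5.11, 5.09 and 5.23 in 4N-1, at 13.9, 12.8 and 15.0 in 2N-2 and 20.0, 19.3 and 18.7 in 4N-2, and at 12.7, 15.4 and 16.9 in 2N-3 and 18.0, 18.6 and 13.1 in 4N-3. It had the largest fall of the 33 tested genes in pair 1, 1.40 (SE 0.13), and rose by 0.46 (SE 0.13) in pair 2, a rise that missed the threshold without B of 2N-2 (0.41, adjusted p = 0.0512). KIF11 (chr10:92593286-92655395), the motor that pushes the spindle poles apart, stood at 2.14, 2.27 and 2.58 in 2N-1 and 0.830, 0.851 and 0.963 in 4N-1, at 1.93, 1.58 and 2.21 in 2N-2 and 2.71, 2.46 and 2.75 in 4N-2, and at 1.59, 2.12 and 2.45 in 2N-3 and 2.67, 2.75 and 1.69 in 4N-3. The libraries of pair 2 were separate, yet KIF11 stood at 0.39 (SE 0.15) there with adjusted p = 0.0539, and it rose on reads (adjusted p = 0.0383) and without C of 2N-2, C of 4N-3, or either A or C of 2N-3 (adjusted p from 0.0173 to 0.0437); in pair 1 it fell by 1.03 (SE 0.15).

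KIF18A (chr11:28020620-28108308), a motor that damps the swaying of chromosomes at the spindle equator, did not pass the RPKM filter. Its RPKM was 0.409, 0.402 and 0.453 in 2N-1 and 0.156, 0.178 and 0.189 in 4N-1, 0.346, 0.296 and 0.385 in 2N-2 and 0.331, 0.335 and 0.343 in 4N-2, and 0.295, 0.392 and 0.432 in 2N-3 and 0.480, 0.482 and 0.324 in 4N-3. The clone 4N-1 was lowest and pairs 2 and 3 overlapped. On its 23396 reads KIF18A fell by 1.27 (SE 0.16) in pair 1 and stood at -0.01 (SE 0.15) in pair 2. Of the other kinesins, KIF23, a central spindle motor needed for cytokinesis, fell by 0.89 (SE 0.15) and rose by 0.60 (SE 0.15). KIFC1, a minus-end motor that draws extra centrosomes together, fell by 1.10 (SE 0.15) and rose by 0.43 (SE 0.15). KIF2C, which takes microtubules apart at wrongly attached kinetochores, fell by 1.06 (SE 0.13) and stood at 0.14 (SE 0.13) in pair 2.

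Of the kinetochore and centromere genes 4 were tested on RPKM. In all, 3 of 4 fell in pair 1 (median -0.81) and 3 of 4 rose in pair 2 (median 0.36), and the exception differed: CENPA in pair 1 and CENPF in pair 2. CENPF (ENSG00000117724, chr1:214603195-214664588), a large outer kinetochore protein that builds up in G2, stood at 5.07, 5.75 and 6.06 RPKM in 2N-1 and 1.86, 1.87 and 2.07 in 4N-1, at 4.64, 3.89 and 5.03 in 2N-2 and 4.38, 3.83 and 3.93 in 4N-2, and at 2.93, 5.48 and 6.27 in 2N-3 and 6.56, 6.60 and 4.38 in 4N-3. The libraries of pair 2 overlapped, and library A of 2N-3 lay below B and C. CENPF fell by 1.33 (SE 0.20) in pair 1 and stood at -0.14 (SE 0.20) in pair 2.

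CENPA (ENSG00000115163, chr2:26764289-26801067) stood at 0.764, 0.717 and 0.793 RPKM in 2N-1 and 0.619, 0.593 and 0.624 in 4N-1, at 0.712, 0.655 and 0.738 in 2N-2 and 1.37, 1.35 and 1.27 in 4N-2, and at 1.08, 0.817 and 0.913 in 2N-3 and 1.15, 1.13 and 0.840 in 4N-3. The libraries of pairs 1 and 2 were separate, in opposite directions. CENPA stood at -0.18 (SE 0.08) in pair 1 and rose by 0.61 (SE 0.08) in pair 2 (adjusted p = 3.09e-05); on reads, where the added 0.5 RPKM does not compress a low gene, the values were -0.31 (SE 0.12) and 0.92 (SE 0.11). It shares 138 exon bases with SLC35F6 on the same strand, so part of its reads may be assigned with uncertainty. CENPE, the kinesin that carries chromosomes to the spindle equator, fell by 0.76 (SE 0.14) and rose by 0.39 (SE 0.14), and NDC80, which binds the microtubule, fell by 0.87 (SE 0.11) and rose by 0.33 (SE 0.11). On reads NUF2, the partner of NDC80 in the same complex, fell by 1.29 (SE 0.15) and stood at -0.16 (SE 0.15) in pair 2. These sizes are on another scale than those of NDC80 and cannot be set beside them. From 2N-1 to 4N-1 mean RPKM went from 1.22 to 0.446 for NDC80 and from 0.654 to 0.268 for NUF2. SGO1, which protects cohesin at centromeres, fell by 1.20 (SE 0.17) and rose by 0.70 (SE 0.16) on reads.

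The 3 tested subunits of the chromosomal passenger complex, which carries AURKB to the centromere and later to the midzone, all fell in pair 1 (median -1.12). INCENP (chr11:62123973-62153163), the scaffold, stood at 1.56, 1.65 and 1.94 RPKM in 2N-1 and 0.788, 0.758 and 0.813 in 4N-1, at 1.57, 1.55 and 1.74 in 2N-2 and 2.55, 2.42 and 2.50 in 4N-2, and at 0.826, 1.70 and 1.90 in 2N-3 and 2.38, 2.43 and 1.48 in 4N-3. Every library of 4N-2 lay above 2N-2, and library A of 2N-3 lay near the level of 4N-1. INCENP fell by 0.78 (SE 0.18) in pair 1 and rose by 0.50 (SE 0.18) in pair 2 (adjusted p = 0.0412), a call that was lost under 4 of 8 other settings (adjusted p from 0.0545 to 0.0827) and without any 1 of the 6 libraries of pair 2 or of B of 2N-1 and A, B or C of 4N-1 (0.0519 to 0.105). BIRC5, which encodes survivin, fell by 1.26 (SE 0.17) and rose by 0.50 (SE 0.17), while CDCA8, which encodes borealin, fell by 1.12 (SE 0.16) and stood at 0.08 (SE 0.16) in pair 2.

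The 4 genes of the spindle and of cytokinesis all fell in pair 1 (median -1.04), and 3 rose in pair 2 (median 0.48). ANLN (chr7:36389806-36453791), the actin-binding scaffold of the cleavage furrow, stood at 3.33, 3.67 and 4.20 RPKM in 2N-1 and 1.50, 1.55 and 1.69 in 4N-1, at 3.21, 2.67 and 3.78 in 2N-2 and 7.26, 6.78 and 7.66 in 4N-2, and at 2.15, 3.68 and 4.38 in 2N-3 and 5.05, 5.25 and 2.81 in 4N-3. Its 4N-2 libraries were the 3 highest of the 18. ANLN fell by 1.02 (SE 0.22) and had the largest rise of the 33 genes in pair 2, 1.07 (SE 0.22). PRC1, which bundles the midzone microtubules, fell by 1.20 (SE 0.15) and rose by 0.50 (SE 0.15). TPX2, the activator of AURKA on the spindle, fell by 1.06 (SE 0.13) and rose by 0.47 (SE 0.13). ECT2, the exchange factor that turns on RhoA at the furrow, fell by 0.64 (SE 0.15) and stood at 0.33 (SE 0.15) in pair 2. It passed there without the 2 libraries that stand apart (adjusted p = 0.00112). PRC1 shares 3181 of its 5525 exon bases with AC068831.7, annotated on the same strand in GENCODE v29 and without a row among the deposited values.

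FOXM1, TOP2A and MKI67 all fell in pair 1 (median -1.30). FOXM1 (ENSG00000111206, chr12:2857681-2877155), the transcription factor of the G2 and M programme, stood at 11.5, 12.5 and 14.7 RPKM in 2N-1 and 4.92, 4.85 and 4.93 in 4N-1, at 12.2, 11.2 and 13.5 in 2N-2 and 20.1, 18.6 and 19.5 in 4N-2, and at 11.7, 11.9 and 13.1 in 2N-3 and 16.1, 16.2 and 10.2 in 4N-3. Its 4N-2 libraries were the 3 highest of the 18, and FOXM1 fell by 1.30 (SE 0.14) and rose by 0.64 (SE 0.14). In pair 3 it stood at 0.18 (SE 0.14) and passed only without C of 4N-3 (0.39, adjusted p = 0.0302) or without that library and A of 2N-3 (0.36, adjusted p = 0.0290). It shares 781 exon bases with ITFG2 on the other strand, a gene with 33079 reads against 188146.

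TOP2A (chr17:40388516-40417950), the topoisomerase that disentangles sister chromatids, stood at 10.7, 11.6 and 12.4 RPKM in 2N-1 and 4.35, 4.39 and 5.00 in 4N-1, at 10.3, 8.59 and 11.5 in 2N-2 and 20.2, 19.4 and 21.3 in 4N-2, and at 7.52, 12.0 and 13.5 in 2N-3 and 15.0, 15.3 and 9.72 in 4N-3. Library A of 2N-3 was below B and C, and all of 4N-2 lay above every other library. TOP2A fell by 1.25 (SE 0.19) and rose by 0.97 (SE 0.19). MKI67 (ENSG00000148773, chr10:128096659-128126385) encodes Ki-67, which coats mitotic chromosomes and is the common marker of cycling cells. It stood at 14.7, 16.9 and 20.3 in 2N-1 and 6.47, 6.55 and 6.66 in 4N-1, at 14.5, 13.1 and 16.9 in 2N-2 and 23.9, 19.9 and 20.9 in 4N-2, and at 7.95, 16.2 and 19.4 in 2N-3 and 21.9, 22.8 and 13.0 in 4N-3. All of 4N-2 lay above 2N-2, but MKI67 did not pass in pair 2 (0.53 (SE 0.26), adjusted p = 0.134; 0.0238 without A of 2N-3), and it fell by 1.32 (SE 0.26) in pair 1.

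Replicate libraries of 1 clone differed in these genes more than in the rest of the transcriptome in 3 of the 6 clones. The median SD of log2(RPKM + 0.5) over the 3 libraries of a clone was 0.36 for the 33 genes against 0.11 for all tested genes in 4N-3, 0.15 against 0.07 in 2N-2 and 0.12 against 0.07 in 2N-1. It was 0.05 against 0.06 in 4N-1, 0.07 against 0.08 in 4N-2 and 0.20 against 0.24 in 2N-3. These values describe the spread and were not tested.

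Library C of 4N-3 carried most of the spread of its clone. All 33 genes were lower in it than the mean of A and B, with a median of -0.62 against -0.05 over all genes tested, of which 59.2% were lower, and so were 33 of 33 DNA replication and S phase genes (median -0.73) and 68 of 68 other mitosis genes (median -0.57). On log2 RPKM the differences of the 37 ran from -0.44 (CENPA) to -0.97 (AURKB). By role the median was -0.79 for the kinases, -0.75 around the anaphase-promoting complex, -0.71 for the kinesins and -0.60 for the cyclins and for the kinetochore genes alike. Smaller shifts of the same kind appeared elsewhere: all 33 were lower in B of 2N-2 (median -0.22, with 48.6% of all genes lower), and all 33 were higher in C of 2N-2 (0.23, with 50.5% of all genes lower) and in C of 2N-1 (0.20, with 38.5% lower). Library C was also higher for 25 of 33 in 2N-3 (0.19, with 58.2% of all genes lower). The same held for 27 in 4N-2 (0.09, with 40.6% lower) and 30 in 4N-1 (0.07, with 40.9% lower). Among the C libraries, only that of 4N-3 had a median below 0.

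**Figure D4:**
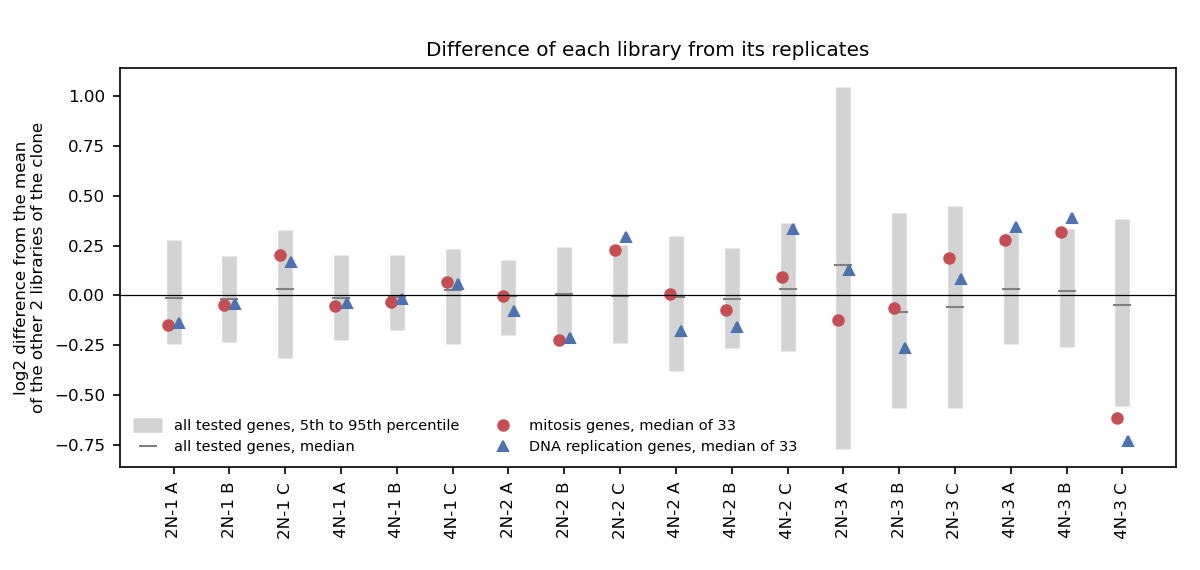
Difference of each library from the mean of the other 2 libraries of its clone, in log2(RPKM + 0.5): median of the 33 mitosis genes (red circles), median of 33 DNA replication genes (blue triangles), and median with 5th to 95th percentile of all 9704 genes (grey). Library C of 4N-3 shows the lowest red circle, -0.62, while in A of 2N-3 the grey bar is the widest, from -0.77 to 1.05.

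Library A of 2N-3 differed from B and C in another way, with 18 of the 33 genes lower and 15 higher on log2(RPKM + 0.5). The median was -0.12, against 0.15 over all genes tested, of which 38.8% were lower. On log2 RPKM, MKI67 (-1.16) and INCENP (-1.12) were lowest and PTTG1 (1.00), UBE2C (0.64) and AURKB (0.62) highest. The order followed the exon length of the gene: the 9 shortest of the 37 (1286 to 2801 exon bases) had a median of 0.45 and the 9 longest (5525 to 12807) a median of -0.76. The rank correlation with exon length was -0.77 over the 37 genes and -0.41 over 9109 tested genes with annotation. It was 0.07 and 0.07 in library C of 4N-3, where the 9 shortest and 9 longest had medians of -0.75 and -0.68. Other clones also had libraries with a relation to length: over the 37 genes their values ran from -0.50 (B of 4N-2) to 0.47 (B of 2N-1). Over all tested genes with annotation they ran from -0.20 (C of 4N-2) to 0.15 (A of 4N-2). All genes of a library share its depth and preparation, so these correlations are descriptions, and they were added after the values had been seen.

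**Figure D5:**
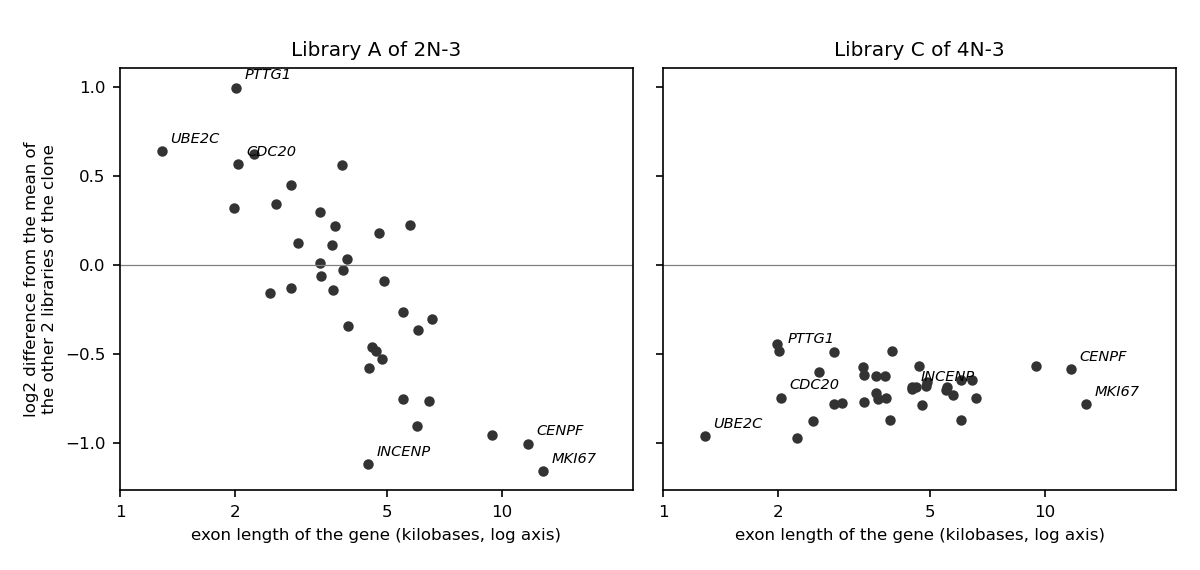
Difference of 1 library from the mean of the other 2 of its clone (log2 RPKM, vertical) against the summed exon length of the gene (kilobases, log axis) for the 37 mitosis genes. In A of 2N-3 (left) the values run from 1.00 for PTTG1 to -1.16 for the longest gene, MKI67, while in C of 4N-3 (right) all lie between -0.44 and -0.97 at every length.

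The wider mitotic machinery moved with the 37. Among all genes tested, 10.3% were called lower and 10.6% higher in pair 1, 21.5% higher and 16% lower in pair 2, and 1.99% higher and 1.41% lower in pair 3. Without the 2 libraries that stand apart, 12.3% were called higher in pair 3. Of 87 other mitosis genes 68 were tested. In pair 1, 65 fell and none rose (median -0.87), and in pair 2, 33 rose and 2 fell (median 0.39). None passed in pair 3 (20 rose without the 2 libraries that stand apart). The largest falls in pair 1 were CDCA3 (-1.32, SE 0.16), NEK2, a centrosome kinase (-1.25, SE 0.12), and HMGB2, a chromatin protein (-1.24, SE 0.16). The largest rises in pair 2 were PIMREG (1.12, SE 0.14), TUBB4B, a beta tubulin (1.11, SE 0.21), and HJURP, the chaperone that loads CENPA (1.04, SE 0.16). The 2 that fell in pair 2 were SMC4, a condensin subunit (-0.74, SE 0.16), and SKA2, an outer kinetochore protein (-0.53, SE 0.09). Of the 33 DNA replication and S phase genes tested, 31 fell in pair 1 (median -0.79), 11 rose and none fell in pair 2 (median 0.35), and none passed in pair 3 (11 rose without those 2 libraries).

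Genes that govern these transcripts or act upstream were taken as further lists, to be read against the shares of all genes given above. Of 13 tested genes of the anaphase-promoting complex core and its activator CDH1, 2 fell in pair 1 (FZR1 by 0.28, SE 0.07, and UBE2S by 0.97, SE 0.23), 5 rose in pair 2 and none passed in pair 3 (3 rose without the 2 libraries), beside 10.3% of all genes lower in pair 1, 21.5% higher in pair 2 and 1.99% higher in pair 3. Of 5 tested MuvB and DREAM genes none passed in pair 1 or pair 3 and 1 (TFDP1, 0.53, SE 0.13) rose in pair 2, while TFDP1 and E2F4 rose in pair 3 without the 2 libraries. In that setting RBL2 and TFDP1 also passed in pair 1, 1 higher and 1 lower, beside 24.2% of all genes lower. Both rose in pair 2, beside 33.9% of all genes higher. E2F4, a repressor subunit of DREAM, stood at -0.04 (SE 0.11), 0.11 (SE 0.11) and 0.02 (SE 0.11) in pairs 1, 2 and 3, and at 0.23 (SE 0.07, adjusted p = 0.0493) in pair 3 without them. On reads 12 genes of that list were tested; 5 fell and 1 rose in pair 1, beside 8.95% of all genes lower and 9.91% higher. RBL1, the p107 subunit of DREAM, fell by 1.17 (SE 0.22), MYBL2, an activator of the programme, by 1.01 (SE 0.28), and the MuvB subunits LIN9 by 1.00 (SE 0.20), LIN52 by 0.59 (SE 0.13) and LIN54 by 0.53 (SE 0.18). E2F5, a repressor E2F, rose by 0.32 (SE 0.10) in pair 1, but on reads it fell in pair 2, at -0.28 (SE 0.10, adjusted p = 0.0394). Of 3 tested inhibitors of entry into mitosis, CDKN1A, which encodes p21, rose in all 3 pairs, by 1.23 (SE 0.09), 1.75 (SE 0.09) and 0.99 (SE 0.09), while PKMYT1 fell in pair 1 by 0.88 (SE 0.25) and WEE1 fell in pair 2 by 0.45 (SE 0.09). Whether CDKN1A bears on the levels of the mitosis genes was not tested.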

How the data were processed

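Polyadenylated RNA of 18 RPE1 libraries (6 clones, 3 each) was prepared with a stranded TruSeq kit, per the labels' protocols. The submitters' processing notes name CASAVA 1.8.2, TopHat2, edgeR and hg19; the annotation release and the use of strand in counting are not given in the sources used here. The values are RPKM per gene in each library as the authors deposited them. Reads were recovered from it: values of 40833 genes were whole multiples of 1 read within 0.01 reads (99.951% of genes above 0), 20 genes were not, and 16920 were at 0. Genes were named through GENCODE v29 (52338 matched), and printed positions are of GRCh38, not hg19. The members and lists were chosen with earlier results of these data known.

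Genes with 1 RPKM or more in 3 libraries were fitted as log2(RPKM + 0.5) with limma 3.58.1 in R 4.3.3, with a mean per clone, a trended moderation over all 18 libraries, two-sided tests and Benjamini-Hochberg adjustment. Recovered reads of genes with 10 or more reads in 3 libraries were fitted with limma-voom, the main alternative. The others were pseudocounts of 0.1 and 1, no filter or a filter on the mean, median centring, a replicate block, and leaving out each library or both that stand apart (for contrasts between tetraploid clones added after seeing the data, as was the exon scale of markers). The fits were tested on simulated data. The main fit did not pair libraries by the letters A, B and C. Over all tested genes, deviations of libraries with the same letter in a pair correlated at -0.116 to 0.219. These values do not exclude a shift shared by letter in the mitosis genes, which was not tested. Named genes followed a rule: every member accounted for, 17 with values in every library (ANLN and CENPA, and RBL1, LIN52, LIN54 and E2F5 outside the members, were added after their values were seen), the largest and smallest changes by role, those past 2-fold in pairs 2 and 3, and those not tested or not passing in pair 1. Of the lists UHRF1 (DNA replication) and PECAM1 (other cell types) had no matched row. Promoters came from RefSeq. Reads of copies elsewhere were at most 2.24% of those of the member they resemble, and 14 members share exon bases with a gene on the other strand. Python 3.11.15 with pandas 2.3.3 and scipy 1.17.1 made the summaries.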

Additional observations from a re-analysis of the deposited data

Results flagged for a closer look

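Differences between the pairs were tested on the log2 change itself with limma (adjusted p below 0.05). Of all genes tested, 20.5% had pair 2 above pair 1, and 5.16% had pair 3 above pair 1. The change of pair 2 exceeded that of pair 1 in 33 of 33 genes: by 2.22 for TOP2A, 2.08 for AURKB, 1.94 for FOXM1, 1.92 for CDK1, 1.86 for KIF20A, 1.85 for MKI67, 1.66 for PLK1 and for AURKA, 1.42 for KIF11, 1.31 for MAD2L1, 1.28 for INCENP, 1.22 for CDC20, 1.21 for CCNB1, and 1.19 for BUB1 and for CENPF.

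The change of pair 3 exceeded that of pair 1 in 31 of 33: by 1.76 for MKI67, 1.60 for CENPF, 1.53 for KIF20A and for TOP2A, 1.48 for FOXM1, 1.31 for PLK1, 1.20 for INCENP, 1.19 for KIF11, 1.16 for CDC20, 1.12 for AURKA, 1.11 for AURKB and for BUB1, 1.08 for CCNB1, 0.97 for CDK1 and 0.96 for MAD2L1. The change of pair 2 exceeded that of pair 3 in 6 of 33, a share near the 14.3% of all genes. Among them CDK1 stood at 0.95 and AURKB at 0.97 (0.68 and 0.47 without the 2 libraries that stand apart). No cause of these differences was tested; pair 2 alone had been labelled with Hoechst 33342, so that label and the clones of pair 2 cannot be told apart.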

How the results depend on the processing

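The count of genes that fell in pair 1 was 32 under pseudocounts of 0.1 and 1, 36 of 37 without a filter, and 32 with each library left out in turn. With a replicate block (the letters A, B and C as a term) 32 fell in pair 1, 16 rose in pair 2 and 0 passed in pair 3, and the differences between pairs gave 33, 29 and 5. In pair 2 the number that rose was 17 at a pseudocount of 0.1, 16 after median centring and 23 on reads, and it ran from 9 to 25 with 1 library left out (9 without B of 2N-2, 12 without C of 4N-2). In pair 3 it ran from 0 to 3 (3 without C of 4N-3) and was 7 without both libraries that stand apart, a setting that also gave 1 gene, CDC20, with pair 2 below pair 3. Leaving out 1 library gave 26 to 33 genes for pair 3 above pair 1 and 3 to 8 for pair 2 above pair 3 (3 without A or B of 2N-2 or C of 4N-2). For most of these settings no share of all genes is given, so the counts show only how the calls moved. The promoter counts were 13 for CHR and 10 for both letters in the 100 bases before the start. Of the changes of 15 named genes in 3 pairs none turned sign while called under the 8 other settings or with any of 18 libraries left out; 16 values lost the call and 16 gained it, 28 of these in pair 2. The cause of these shifts was not tested. The 4 genes below the filter were tested on RPKM only where no filter was set, so what depth allows for them rests on their reads.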

Other observations

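In library C of 4N-2 the DNA replication genes and the mitosis genes parted: 33 of 33 replication genes lay above the mean of A and B (median 0.34 in log2(RPKM + 0.5)), while the mitosis genes had a median of 0.09, with 27 of 33 above. Over all tested genes the median was 0.03, with 40.6% lower. In A of 4N-2 the medians were -0.18 for replication and 0.01 for mitosis genes, beside -0.01 over all tested genes. In C of 4N-3 both lists were lower together (-0.73 and -0.62).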
